A study of Mus musculus with 8 samples.

Results

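The amino acid transporter families Slc1, Slc3, Slc6, Slc7, Slc36, Slc38 and Slc43 were described in mouse pancreatic islets with and without insulin-degrading enzyme. The members were all protein-coding genes whose mouse symbol is one of these family names, then the letter a and a number, 61 genes of 21974 protein-coding and 55487 annotated gene identifiers. They comprised 7 Slc1, 2 Slc3, 19 Slc6, 15 Slc7, 4 Slc36, 11 Slc38 and 3 Slc43 genes. Symbols with further letters fall outside that rule, namely the protein-coding Slc6a20a, Slc6a20b and Slc7a6os and 3 antisense genes. The libraries came from hand-picked islets of C57BL/6J mice that ate a diet with 60 kcal% fat for 2 weeks from 10 weeks of age. There were 5 Ide+/+ libraries and 3 Ide-/- libraries, which by the genotype label lack a working Ide gene on both chromosomes; the labels name no Cre or transgene. All animals are labelled female, but the sex-linked transcripts given below go with that label in Ide+/+ replicate 1 alone. The replicates are labelled biological, but the number of mice behind each is not stated, so that p-values here reflect the spread among these 8 libraries, which may be technical in part.

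Amino acid carriers set how much of each amino acid a cell can take up, release or exchange. Many Slc7 carriers are light chains that reach the plasma membrane only when bound to a heavy chain, the Slc3a2 or the Slc3a1 protein. Slc38 and Slc1 carriers use the sodium gradient, Slc36 carriers such as Slc36a1 use protons, and part of the Slc6 family takes up neurotransmitters, taurine or creatine instead. In the pancreas, acinar cells import amino acids for digestive enzyme synthesis, while in islets arginine, glutamine and leucine act on hormone secretion and alpha cells raise Slc38a5 when glucagon signalling is blocked.

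Several features of the libraries touch every value below. Expected counts per library were 19277269 to 33371642 in the Ide+/+ libraries against 7143415 to 17445935 in the Ide-/- libraries. Ide transcripts had 19.5 to 39.2 CPM in Ide+/+ and 0.167 to 0.367 CPM in Ide-/-. A list of 26 acinar markers took 22.1% to 38.5% of counts in the Ide+/+ libraries against 0.643% to 1.38% in the Ide-/- libraries (two-sided exact permutation p = 0.0179, the smallest possible), and 26 of 26 were lower. Beta cell markers took 1.72% to 7.82% and 13.5% to 22.0%, with 0 of 12 called, and none of the acinar or beta markers was at 0 in all Ide-/- libraries. Macrophage markers were lower in 12 of 14 tested and took 0.0166% to 0.0592% of counts in the Ide+/+ libraries against 0.0218% to 0.0281% in the Ide-/- libraries. Duct markers were lower in 9 of 12, with shares of 0.0802% to 0.140% and 0.0520% to 0.0668%. Ide+/+ replicate 1 alone lacked counts of the Y-linked Ddx3y and had 692 Xist counts, which goes with the common label of female. Every other library, among them all Ide-/- ones, goes against that label. These had 503 to 2139 Ddx3y counts and at most 11 Xist counts. The file of Ide+/+ replicate 1 also bears another prefix number. Ide+/+ replicates 2 and 3 were nearly alike, since the chi-square of their median gene was 1.84 times that of counting noise, against 10.5 to 109 times in other Ide+/+ pairs and 4.73 to 11.8 times in Ide-/- pairs. Because that is above counting noise they were kept as separate libraries, and the comparison was repeated with them summed. In such bulk libraries, fewer cells of a type and less RNA per cell cannot be told apart.

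Of the 61 transporter genes, 38 had enough counts to be tested, and in Ide-/- islets 10 were lower, 5 were higher and 23 were not called. Calls required an adjusted p under 0.05 in edgeR's quasi-likelihood test with Benjamini-Hochberg adjustment over 16266 genes. Among all tested genes 21.1% were called, 10.4% higher and 10.6% lower, against 39.5%, 13.2% and 26.3% of the tested transporters. These shares are a description only, because a gene that passes the count filter through its higher group is more likely to differ. The median log2 fold change (Ide-/- over Ide+/+) was −0.39 over the tested transporters and −0.01 over all tested genes. The TMM-scaled CPM values of the 2 genotypes did not overlap for 17 tested transporters, where 33.0% of all tested genes had no overlap. With Ide+/+ replicates 2 and 3 summed, 10 were lower and 5 higher, and without Ide+/+ replicate 1, 12 were lower and 4 higher.

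The balance of directions depended on how libraries were scaled. TMM scaling, which sets most genes level between libraries, had factors from 0.4055 to 2.064. On log2(TPM + 1) values tested with limma, 6 transporters were higher and 5 lower among 30 with a mean of at least 0.5 TPM, where 36.1% of all genes tested on that scale were higher and 2.33% lower. With library totals and no TMM scaling, an alternative chosen after seeing the data, 12 of 38 were higher and 6 lower, where 51.7% of all genes were higher and 1.73% lower. The median of all genes moved to 0.61 and 1.22 in these settings and that of the transporters to 0.34 and 0.79. The transporter median was below the median of all genes on each of the 3 scales. Rescaling shifts all genes much alike, so the 3 scales do not count as separate support.

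**Figure D1:**
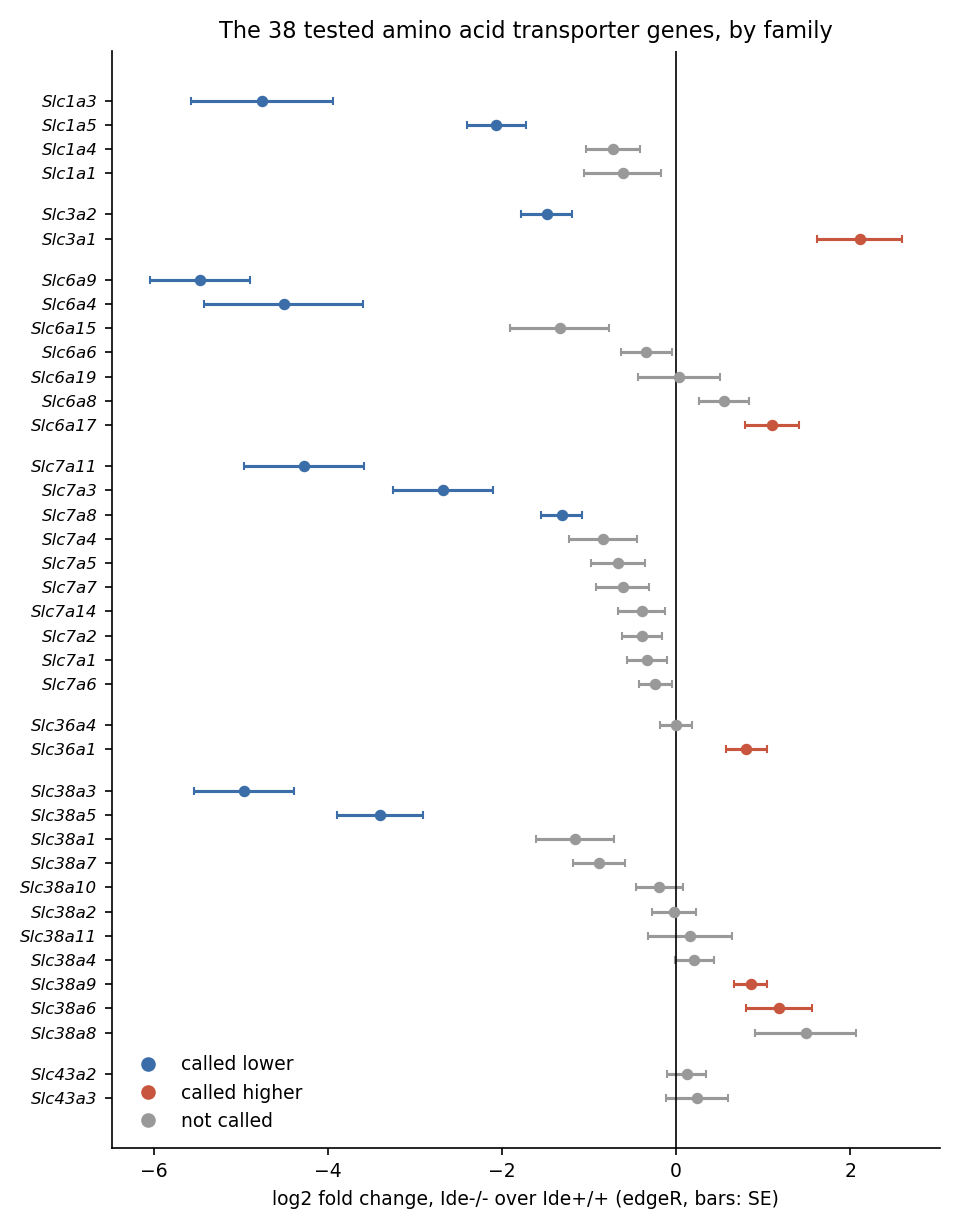
Log2 fold change of each of the 38 tested transporter genes (x axis, Ide-/- over Ide+/+, edgeR with TMM scaling, bars give the SE), grouped by family on the y axis. The 10 genes called lower are blue, the 5 called higher red and the 23 not called grey, and all 10 tested Slc7 genes lie below 0, while with library totals 7 of the 10 and on log2(TPM + 1) 6 of 9 lie above 0.

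The Slc38 family, sodium-coupled neutral amino acid carriers, held the most abundant of the strongly lower genes beside abundant genes that were not called. Slc38a5 (ENSMUSG00000031170; GRCm38 chromosome X, 8271133 to 8280179), which exchanges glutamine, asparagine, histidine and serine, had 197, 57.4, 62.0, 117 and 181 CPM in Ide+/+ replicates 1 to 5. In Ide-/- replicates 1 to 3 it had 8.13, 16.4 and 10.4 CPM, so that every Ide-/- library lay below every Ide+/+ library. It fell by 3.40 on the log2 scale (SE 0.49, adjusted p = 0.00113, edgeR), from 123 ± 65.0 CPM (SD, n = 5) to 11.6 ± 4.25 CPM (SD, n = 3). The fall was also called on log2(TPM + 1) values (−2.24) and with library totals (−1.86). Slc38a3, a related glutamine and histidine carrier, had 11.7, 4.86, 3.91, 11.7 and 4.399 CPM in the Ide+/+ libraries against 0.167, 0.325 and 0.183 CPM in the Ide-/- libraries. It fell by 4.97 on the log2 scale (SE 0.57, adjusted p = 0.000503, edgeR), and the Ide-/- values rested on 6, 8 and 2 counts.

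Other Slc38 genes of high level did not follow Slc38a5. Slc38a4, a carrier of small neutral amino acids, had 83.3 ± 17.8 CPM in Ide+/+ and 96.4 ± 14.4 CPM in Ide-/- (log2 fold change 0.21, SE 0.23, adjusted p = 0.536, edgeR), but it was called higher on log2(TPM + 1) (1.07, adjusted p = 0.0145, limma) and with library totals (1.498, adjusted p = 0.00433, edgeR). Slc38a2, the starvation-inducible carrier of alanine and glutamine, had 46.2 ± 13.5 and 45.4 ± 5.68 CPM, but its TPM groups did not overlap and it was called higher with library totals (1.303, adjusted p = 0.00872, edgeR). Slc38a10 had 54.2 ± 16.5 and 47.5 ± 7.39 CPM, and the antisense-strand gene Gm11769 that overlaps it rose from 4.45 ± 1.67 to 18.3 ± 2.74 CPM. Since the strand setting of the counting is not given in the sources used here, reads of such a pair cannot be assigned with certainty. The ratio of Slc38a5 to Slc38a4, taken within each library on TPM and so free of library scaling, was 3.80, 1.70, 1.82, 2.95 and 5.61 in the Ide+/+ libraries against 0.200, 0.405 and 0.200 in the Ide-/- libraries. The groups did not overlap in this ratio, and Slc38a5 was the more abundant of the pair in every Ide+/+ library and the less abundant in every Ide-/- library.

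Among the remaining Slc38 genes that were not called, levels were low. Slc38a7, a lysosomal glutamine carrier, had 5.46 ± 1.77 and 2.93 ± 0.670 CPM (adjusted p = 0.0549, edgeR), and was called lower with DESeq2 (adjusted p = 0.0272) and without Ide+/+ replicate 5 (0.019). Slc38a1, a glutamine carrier of neurons and other cells, had 1.17 ± 0.406 and 0.540 ± 0.283 CPM (adjusted p = 0.0852), and without Ide+/+ replicate 1 it was called lower (0.0344). Slc38a8 had 0.174 ± 0.138 and 0.634 ± 0.334 CPM (adjusted p = 0.0865), with no overlap between the groups but at most 19 counts in a library. Slc38a11 had 1.98 ± 1.05 and 2.25 ± 1.01 CPM.

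**Figure D2:**
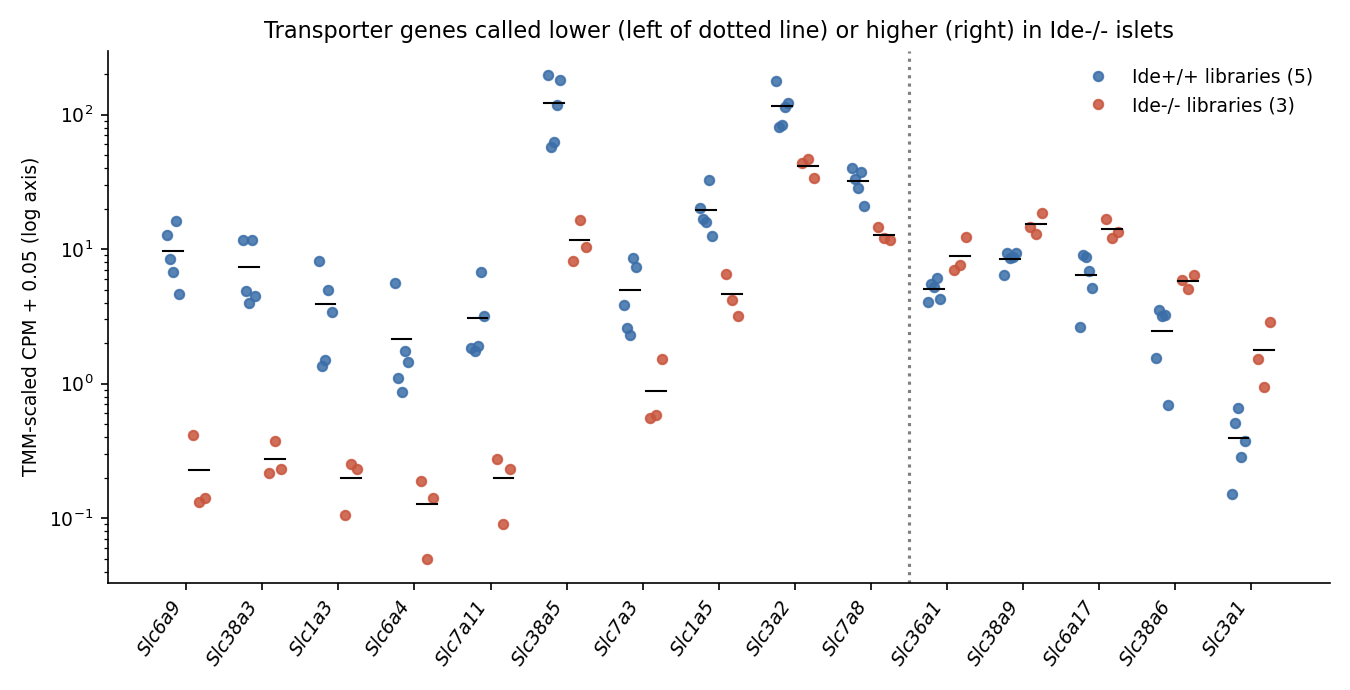
TMM-scaled CPM plus 0.05 (y axis, log scale) of the 15 called transporter genes in each of 5 Ide+/+ (blue) and 3 Ide-/- (red) libraries, with a bar at each group mean. No gene has overlapping groups, and Slc6a9, Slc38a3, Slc1a3, Slc6a4 and Slc7a11 lie under 0.4 CPM (before 0.05 is added) in all Ide-/- libraries.

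Among the Slc3 heavy chains and their Slc7 light chains, the common heavy chain and 2 of its partners were lower. Slc3a2 (ENSMUSG00000010095; chromosome 19, 8706882 to 8723369, 28.5 Mb from Ide on the same chromosome), the 4F2 heavy chain, had 177, 81.2, 83.6, 115 and 122 CPM in the Ide+/+ libraries against 43.4, 46.6 and 33.6 CPM in the Ide-/- libraries. It fell by 1.48 on the log2 scale (SE 0.30, adjusted p = 0.00581, edgeR), with no overlap of the CPM values. On the authors' TPM scale its groups overlapped, at 38.9 to 57.5 TPM in Ide+/+ and 25.8 to 43.5 TPM in Ide-/-, and it was not called on log2(TPM + 1) (−0.43, adjusted p = 0.203, limma) or with library totals (−0.06, adjusted p = 0.882, edgeR). Slc7a8, the LAT2 light chain for large and small neutral amino acids, had 39.8, 33.0, 28.2, 37.2 and 20.9 CPM in the Ide+/+ libraries against 14.6, 12.1 and 11.6 CPM in the Ide-/- libraries. Its fitted log2 fold change came to −1.32 (SE 0.23, adjusted p = 0.00345, edgeR), and like Slc3a2 it was not called on log2(TPM + 1) (−0.30, adjusted p = 0.501, limma) or library totals (−0.05, adjusted p = 0.923, edgeR). Its TPM groups overlapped, at 3.17 to 10.17 TPM in Ide+/+ and 3.41 to 6.57 TPM in Ide-/-.

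Slc7a11 (ENSMUSG00000027737; chromosome 3, 49892526 to 50443614), the light chain that imports cystine in exchange for glutamate, had 1.80, 1.71, 1.85, 6.71 and 3.11 CPM in Ide+/+. In Ide-/- it had 0.223, 0.0407 and 0.183 CPM from 8, 1 and 2 counts, below every Ide+/+ library. Its fitted log2 fold change came to −4.27 (SE 0.69, adjusted p = 0.00211, edgeR), and −5.001 without Ide-/- replicate 1. Slc7a5, the LAT1 light chain for leucine and other large neutral amino acids, ranged from 5.80 to 14.5 CPM across Ide+/+ libraries and from 4.596 to 5.59 CPM across Ide-/- ones. The groups did not overlap, but the difference did not pass the test (log2 fold change −0.67, SE 0.31, adjusted p = 0.141, edgeR), and the overlapping gene Gm20388 on the other strand had 16.04 ± 4.89 and 7.45 ± 2.09 CPM. The y+LAT light chains Slc7a6 and Slc7a7 had 11.1 ± 1.35 and 9.37 ± 1.37 CPM, and 1.82 ± 0.309 and 1.20 ± 0.309 CPM, neither of them called.

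The heavy chain was in excess of its measured light chains in every library on the length-corrected TPM scale. The ratio of Slc3a2 to the summed TPM of Slc7a5, Slc7a6, Slc7a7, Slc7a8, Slc7a10 and Slc7a11 was 6.42, 3.18, 3.41, 3.81 and 5.35 in the Ide+/+ libraries against 3.03, 3.67 and 2.98 in the Ide-/- libraries, with overlap between the groups. Slc7a5 was less abundant than Slc7a8 throughout, with a TPM ratio of 0.172 to 0.394 in the Ide+/+ libraries against 0.323 to 0.569 in the Ide-/- libraries.

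The other heavy chain gene moved the opposite way at a far lower level. Slc3a1, the rBAT chain of the renal cystine and dibasic amino acid carrier, had 0.1002, 0.458, 0.604, 0.236 and 0.322 CPM in the Ide+/+ libraries against 1.48, 0.895 and 2.84 CPM in the Ide-/- libraries (log2 fold change 2.11, SE 0.49, adjusted p = 0.0122, edgeR). The 3 Ide-/- values, from 22 to 53 counts, lay above all Ide+/+ values, which rested on 1 to 18 counts. The call was lost without Ide-/- replicate 3 (adjusted p = 0.062). Slc3a1 overlaps Prepl on the other strand, which had 45.8 ± 25.7 and 57.9 ± 4.86 CPM. Its light chain partners were close to absent, with at most 1 count of Slc7a9 and 1 of Slc7a13 in any library.

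Promoter sequence is shown for 3 members because Slc7a11 and several enzymes of amino acid synthesis are known targets of ATF4, which binds amino acid response elements. The core TGATGNAA was sought on both strands (TTNCATCA on the other) in RefSeq windows of 300 bases on GRCm38.p6, with 250 before and 50 after each start. Of the 61 genes 43 had an entry and 4 of these (9.30%) held a match, against 4.51% of all 27025 genes with an entry. The 4 were Slc7a11, called lower, Slc1a4 and Slc7a7, not called, and Slc6a21, at 0 in all libraries. Of the other 6 genes called lower with an entry and the 5 called higher, 0 held a match. Matches are in capitals, and each sequence is on the strand of its gene, minus for Slc7a11 (chr3:50443614-50443813, the 200 bases before the start, with 2 matches 11 bases apart) and Slc1a4 (chr11:20332710-20332863, with the match at the start itself), and plus for Slc38a5 (chrX:8271181-8271380, the 200 bases before the RefSeq start, with no match). The RefSeq start of Slc38a5 lies inside the longer gene model of the annotation given above, so that this stretch is within that model and not upstream of it.
Slc7a11: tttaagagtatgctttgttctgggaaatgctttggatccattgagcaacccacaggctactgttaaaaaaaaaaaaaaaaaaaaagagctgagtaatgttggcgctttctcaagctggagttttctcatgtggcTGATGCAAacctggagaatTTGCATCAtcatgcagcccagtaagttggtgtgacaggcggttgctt
Slc1a4: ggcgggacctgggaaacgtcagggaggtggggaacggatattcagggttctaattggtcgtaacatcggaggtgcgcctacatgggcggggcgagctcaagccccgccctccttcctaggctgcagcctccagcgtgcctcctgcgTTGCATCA
Slc38a5: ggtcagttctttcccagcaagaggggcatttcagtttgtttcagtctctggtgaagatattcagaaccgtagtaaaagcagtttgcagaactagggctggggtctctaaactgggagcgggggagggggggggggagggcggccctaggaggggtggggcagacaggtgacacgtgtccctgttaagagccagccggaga
The matches describe these windows only. Whether the element bears on the level of any of these genes was not tested.

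Of the cationic carriers, which import arginine, lysine and ornithine, 1 of 3 was lower. Slc7a3 had 3.81, 2.52, 2.24, 8.54 and 7.30 CPM in the Ide+/+ libraries against 0.501, 0.529 and 1.47 CPM in the Ide-/- libraries (log2 fold change −2.68, SE 0.57, adjusted p = 0.00823, edgeR), and was not called with library totals (adjusted p = 0.0915). Slc7a2, the most abundant of the 3, had 70.7 ± 15.5 and 54.04 ± 2.43 CPM (−0.39 on the log2 scale, adjusted p = 0.249), but was called lower without Ide+/+ replicate 1 (−0.52, adjusted p = 0.0241). Slc7a1, the ubiquitous arginine carrier, had 10.3 ± 2.93 and 8.198 ± 0.597 CPM (adjusted p = 0.322). The related genes Slc7a14 and Slc7a4 had 68.6 ± 16.7 and 52.2 ± 13.9 CPM, and 21.2 ± 7.52 and 11.7 ± 7.01 CPM, and were not called.

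In the Slc1 family both a neutral amino acid carrier and a glutamate carrier were lower. Slc1a5, the ASCT2 exchanger that takes up glutamine, had 20.04, 16.6, 15.8, 32.5 and 12.4 CPM in the Ide+/+ libraries against 6.43, 4.15 and 3.12 CPM in the Ide-/- libraries. Its fitted log2 fold change came to −2.06 (SE 0.34, adjusted p = 0.0023, edgeR), and it was not called on log2(TPM + 1) (−0.72, adjusted p = 0.109, limma) or with library totals (−0.75, adjusted p = 0.195, edgeR). Slc1a3, the glutamate carrier known from astrocytes as GLAST, had 8.12, 1.298, 1.46, 4.95 and 3.33 CPM in the Ide+/+ libraries against 0.0557, 0.203 and 0.183 CPM in the Ide-/- libraries, the latter from 2 to 5 counts. It fell by 4.75 on the log2 scale (SE 0.81, adjusted p = 0.00278, edgeR). Slc1a4, the ASCT1 exchanger of serine and alanine, had 3.54 ± 1.28 and 2.18 ± 0.109 CPM (adjusted p = 0.114), and was called lower without Ide+/+ replicate 5 (0.0434). The glutamate carrier Slc1a1, which lies 8.35 Mb from Ide, had 1.21 ± 0.562 and 0.840 ± 0.149 CPM (adjusted p = 0.345). In this family every Ide-/- library was below every Ide+/+ library on TMM-scaled CPM for Slc1a5 and Slc1a3 but not for Slc1a4 or Slc1a1. On TPM the groups of Slc1a5 overlapped, at 3.16 to 8.38 TPM in Ide+/+ and 2.14 to 4.41 TPM in Ide-/-.

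The Slc6 family held 2 lower genes and 1 higher gene among 7 tested. Slc6a9 (ENSMUSG00000028542; chromosome 4, 117834506 to 117875198), the glycine transporter GlyT1, had 12.6, 8.45, 6.65, 16.02 and 4.61 CPM in the Ide+/+ libraries against 0.362, 0.0813 and 0.0917 CPM in the Ide-/- libraries. The Ide-/- values rested on 13, 2 and 1 counts, and the Ide+/+ values on 43 to 332. It was 44.3-fold lower by the fitted value (log2 fold change −5.47, SE 0.58, adjusted p = 0.000427, edgeR), and the log2 fold change was −6.73 without Ide-/- replicate 1. The genes B4galt2 and Ccdc24, which overlap Slc6a9 on the other strand, were not called (0.46 and −0.03). Slc6a4, the serotonin transporter, had 5.51, 1.04, 0.818, 1.71 and 1.39 CPM in Ide+/+ and 5, 0 and 1 counts in Ide-/- (log2 fold change −4.51, SE 0.91, adjusted p = 0.0062, edgeR). The value of Ide+/+ replicate 1 stood above the rest, and without that library the log2 fold change was −3.79, while without Ide-/- replicate 1 it was −5.81.

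Other Slc6 genes behaved differently. Slc6a17, a neutral amino acid carrier of synaptic vesicles, had 2.61, 8.91, 8.64, 6.77 and 5.04 CPM in the Ide+/+ libraries against 16.6, 12.1 and 13.4 CPM in the Ide-/- libraries (log2 fold change 1.10, SE 0.31, adjusted p = 0.0275, edgeR). On CPM it was higher in 3 of 3 Ide-/- libraries than in any Ide+/+ library. Its TPM groups overlapped, with up to 4.49 TPM in Ide+/+ and from 4.34 TPM in Ide-/-. The call was lost without Ide+/+ replicate 4 or 5 (adjusted p = 0.0605 and 0.0526, edgeR) and without Ide-/- replicate 1, 2 or 3 (0.113, 0.062 and 0.077). Slc6a6, the taurine transporter and the most abundant Slc6 member, had 67.4 ± 19.7 and 53.3 ± 13.3 CPM (log2 fold change −0.34, SE 0.29, adjusted p = 0.42). The creatine transporter Slc6a8 had 2.20 ± 0.548 and 3.25 ± 0.913 CPM (adjusted p = 0.189, no call), but was called higher on log2(TPM + 1) (adjusted p = 0.0284, limma). Slc6a15, a branched-chain amino acid carrier, had 1.16 ± 0.580 and 0.444 ± 0.214 CPM (adjusted p = 0.112), and the epithelial neutral amino acid carrier Slc6a19 had 1.87 ± 1.39 and 1.84 ± 0.344 CPM (adjusted p = 0.967).

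Slc38a9 and Slc36a1, both known from lysosomes, and Slc38a6 were among the 5 higher genes. Slc38a9, the lysosomal carrier that signals arginine to the growth kinase complex mTORC1, had 6.41, 9.37, 8.46, 8.66 and 9.23 CPM in the Ide+/+ libraries against 14.6, 12.98 and 18.5 CPM in the Ide-/- libraries (log2 fold change 0.86, SE 0.19, adjusted p = 0.01, edgeR). Slc36a1, the proton-coupled carrier of small neutral amino acids on lysosomes and at the cell surface, had 4.01, 5.45, 5.19, 6.07 and 4.18 CPM in the Ide+/+ libraries against 6.93, 7.57 and 12.2 CPM in the Ide-/- libraries (log2 fold change 0.81, SE 0.24, adjusted p = 0.0316, edgeR). Slc38a6 had 1.503, 3.49, 3.13, 3.18 and 0.644 CPM in the Ide+/+ libraries against 5.88, 4.96 and 6.33 CPM in the Ide-/- libraries (log2 fold change 1.18, SE 0.38, adjusted p = 0.0448, edgeR). For each of these genes all 3 Ide-/- libraries lay above all 5 Ide+/+ libraries. Slc36a4, a second member of the Slc36 family, had 10.1 ± 1.54 and 10.1 ± 0.771 CPM (SE of the log2 fold change 0.18, adjusted p = 0.995, edgeR), and was called higher with library totals.

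The calls of these higher genes depended on which libraries were kept, as did calls over all genes. Of all tested genes 1699 were higher, against 864, 785 and 694 without Ide-/- replicate 1, 2 or 3. Without 1 Ide+/+ library, 993 to 2141 were higher. The call of Slc38a9 was lost without Ide-/- replicate 3 (adjusted p = 0.0571). That of Slc36a1 was lost without Ide+/+ replicate 3 or 5 (0.0517 and 0.055) and without Ide-/- replicate 2 or 3 (0.0644 and 0.165), and without the last its log2 fold change was 0.53. That of Slc38a6 was lost without Ide+/+ replicate 1, 3 or 4 (0.0515, 0.0508 and 0.0684) and without Ide-/- replicate 1, 2 or 3 (0.124, 0.0966 and 0.138). With libraries scaled to secretory granule genes, 4 of the 5 higher genes missed the threshold at adjusted p = 0.0534 to 0.0741, with log2 fold changes of 0.91 to 1.29. All 10 lower genes were called without any 1 of the 8 libraries and with granule gene scaling. With library totals, however, all 5 higher genes and only 6 of the 10 lower ones were called, and on log2(TPM + 1) 4 of the higher and 5 of the lower. Slc3a1, Slc7a11 and Slc6a4 were not tested on log2(TPM + 1), because their mean was under 0.5 TPM.

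**Figure D3:**
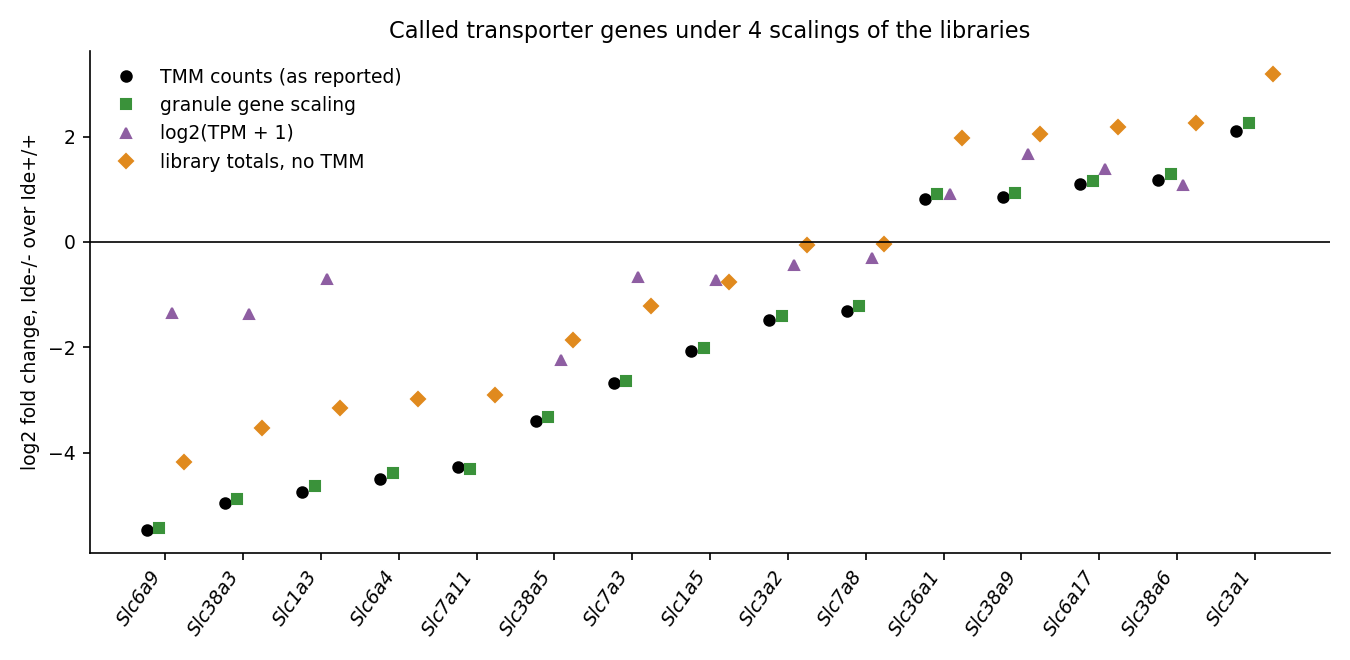
Log2 fold change (y axis, Ide-/- over Ide+/+) of the 15 called transporter genes under 4 library scalings: TMM counts, granule gene scaling, log2(TPM + 1) and library totals. Slc3a2 and Slc7a8 lie near 0 with library totals, Slc38a5 lies at −1.86 or below in all 4, and genes with a mean under 0.5 TPM have no TPM point.

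The 2 tested Slc43 genes were not called. Slc43a3, a purine nucleobase carrier, had 34.5 ± 15.2 and 40.9 ± 10.9 CPM, with 12.7 CPM in Ide+/+ replicate 1 and 32.1 to 55.5 CPM in the other 7 libraries. Slc43a2, the branched-chain and aromatic amino acid carrier LAT4, had 12.7 ± 3.56 and 13.9 ± 0.930 CPM (log2 fold change 0.12, SE 0.23, adjusted p = 0.735, edgeR). The groups overlapped for both, and with library totals both were called higher.

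The remaining 23 genes did not pass the count filter. Slc1a6, Slc36a2, Slc36a3, Slc6a18, Slc6a2 and Slc6a21 had 0 counts in every library. The glutamate carrier Slc1a2 reached 13 counts and 1.303 CPM in Ide+/+ replicate 1, and had 3, 1 and 0 counts in Ide-/-. Slc7a15 reached 7 counts, and Slc43a1, Slc6a3 and Slc6a13 reached 4. Slc6a5, Slc6a11 and Slc6a14 reached 3 counts, Slc6a12 and Slc7a10 reached 2, and Slc1a7, Slc6a7, Slc6a16, Slc7a9, Slc7a12 and Slc7a13 reached 1. The GABA carriers Slc6a11, Slc6a12 and Slc6a13 and the dopamine carrier Slc6a3 were thus at the limit of detection at this depth. Of the genes outside the rule by their letters, Slc6a20b had 0.306 ± 0.203 and 0.524 ± 0.189 CPM and Slc6a20a at most 9 counts.

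Per unit of transcript length, the mix of carriers differed between the genotypes. The summed TPM of the 61 genes was 217 ± 53.8 in Ide+/+ and 226.5 ± 41.9 in Ide-/-, with overlap. In Ide+/+ the highest levels were Slc3a2 (49.8 ± 7.66 TPM), Slc38a5 (42.7 ± 6.99 TPM) and Slc38a4 (15.4 ± 4.96 TPM), and Slc3a2 and Slc38a5 did not differ beyond their spread. In Ide-/- the order was Slc3a2 (37.3 ± 10.001 TPM), Slc38a4 (32.3 ± 1.44 TPM), Slc43a3 (21.5 ± 1.74 TPM), Slc6a6 (18.1 ± 8.04 TPM) and Slc38a10 (16.5 ± 5.32 TPM), with Slc38a5 in rank 9 at 8.58 ± 3.54 TPM. Slc3a2 and Slc38a4 overlapped in Ide-/-, as did Slc43a3 and Slc6a6. The share of Slc38a5 in the summed TPM was 28.1%, 12.5%, 14.0%, 20.2% and 31.9% in the Ide+/+ libraries against 2.57%, 5.402% and 3.48% in the Ide-/- libraries. That of Slc38a4 was 5.68% to 7.69% in the Ide+/+ libraries against 12.9% to 17.4% in the Ide-/- libraries. A larger share for any gene follows in part from the smaller share of Slc38a5, since shares add to a whole.

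**Figure D4:**
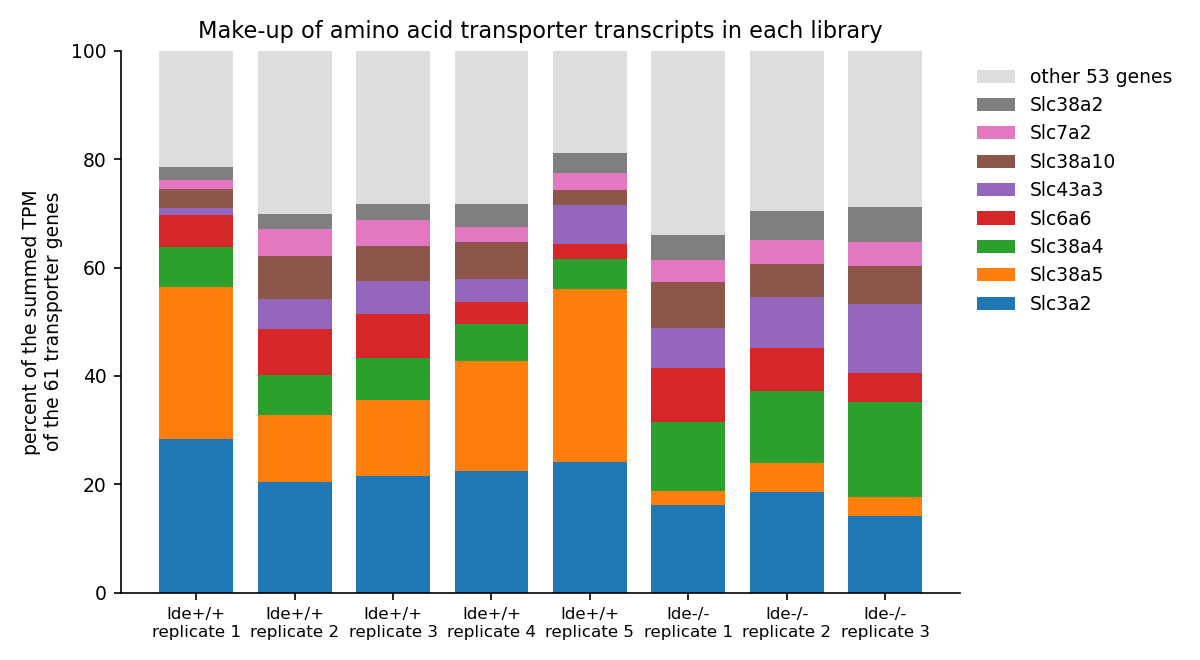
Share of the summed TPM of all 61 transporter genes (y axis, percent) taken by the 8 named genes and the other 53 in each library (x axis). Slc38a5, in orange, takes 12.5% to 31.9% in the Ide+/+ libraries against 2.57% to 5.402% in the Ide-/- libraries libraries.

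Within Ide+/+, some transporter levels differed between libraries of high and low acinar share, while others showed no such order. Acinar markers took 38.5%, 34.6% and 35.0% of counts in Ide+/+ replicates 1, 4 and 5 and 22.1% and 22.4% in replicates 2 and 3. For 5 of the 10 lower genes (Slc38a5, Slc3a2, Slc1a3, Slc6a4 and Slc7a3) replicates 2 and 3 were both below replicates 1, 4 and 5. The same order held for 20.6% of all tested genes and for 967 of all 1727 genes called lower, so that the transporters' share is near that of lower genes in general. Slc38a5 had 57.4 to 62.0 CPM in the former and 117 to 197 CPM in the latter, and Slc3a2 81.2 to 83.6 and 115 to 177 CPM. The other 5 lower genes, among them Slc6a9 and Slc1a5, showed no such order. Of the 23 genes not called, 4 were lower and 5 higher in replicates 2 and 3 than in the other 3, and of the 5 higher genes Slc3a1 and Slc6a17 were higher there, as were 590 of all 1699 genes called higher and 21.6% of all tested genes. As replicates 2 and 3 are nearly alike, they add little more than 1 library to this description. With the acinar share as a further term, 0 of 38 transporters were called by edgeR (6 at an unadjusted p under 0.05, no other tool run). Of all 16266 genes tested in that setting, only 1 was called higher and 12 lower (2564 at an unadjusted p under 0.05). The median SE over all genes was 2.29 times as large, so that 0 transporters called is no result particular to them. The log2 fold change of Slc38a5 was then −0.08 (SE 0.61, adjusted p = 0.96, edgeR) and that of Slc6a9 −4.25 (SE 1.03, adjusted p = 0.181, edgeR). Because the acinar shares of the genotypes do not overlap, genotype and acinar content cannot be told apart. The part of macrophage and duct cells in these results was not tested.

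**Figure D5:**
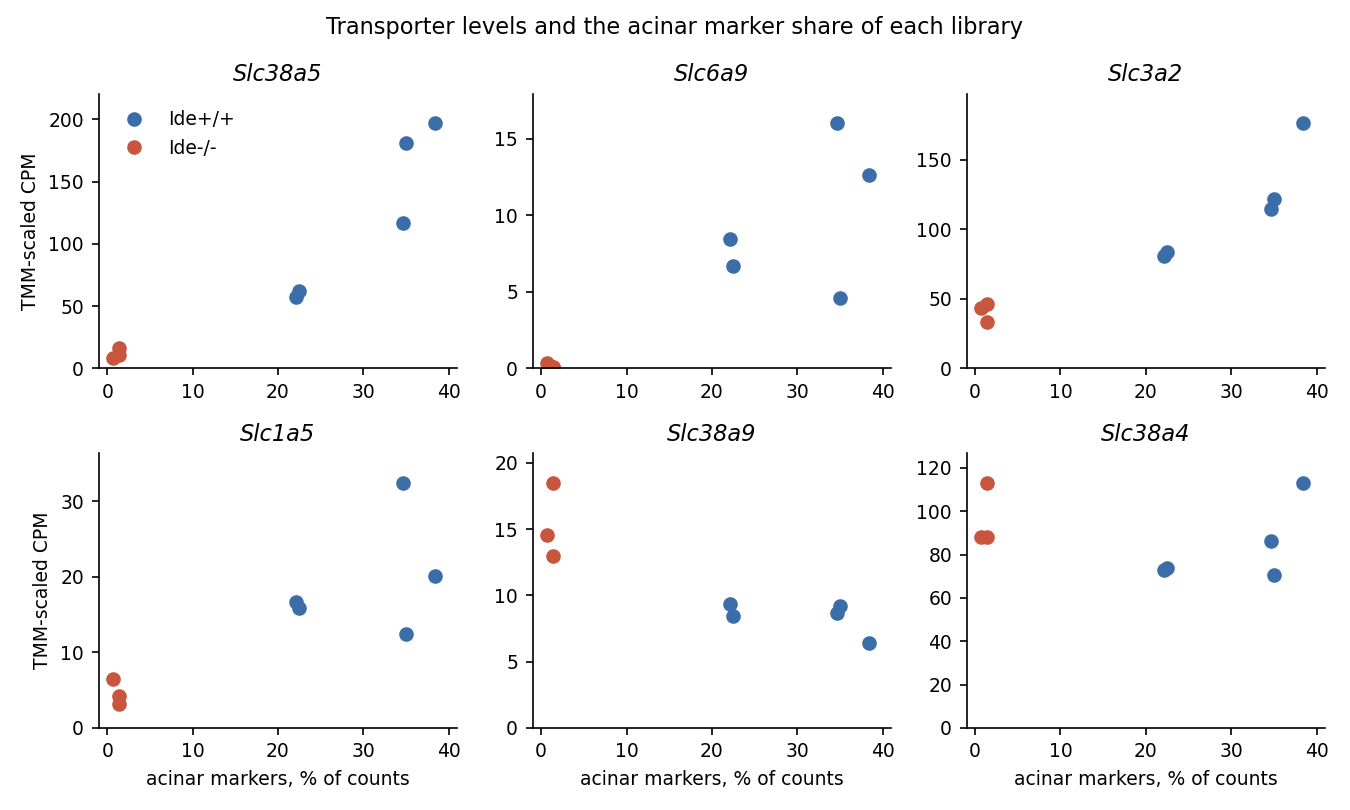
TMM-scaled CPM (y axes) of 6 transporter genes against the acinar marker share of counts (x axes, percent) in 5 Ide+/+ (blue) and 3 Ide-/- (red) libraries. Slc38a5 and Slc3a2 are lowest in Ide-/- and higher in Ide+/+ libraries with 34.6% to 38.5% than with 22.1% to 22.4%, while Slc38a4 shows no such order.

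Genes that work with these carriers were read from the same test. Of 38 tested genes of amino acid sensing and mTORC1 control, 2 were higher and 1 lower, and the median over the list was 0.02 on the log2 scale. The leucine sensor gene Sesn2 fell from 9.33 ± 2.98 to 3.48 ± 1.27 CPM (−1.40 on the log2 scale, SE 0.32, adjusted p = 0.0106, edgeR), and the GATOR2 subunit gene Wdr59 rose from 4.74 ± 0.979 to 9.23 ± 0.917 CPM (0.95, adjusted p = 0.00965). Itfg2, of the KICSTOR complex, rose from 10.4 ± 2.98 to 17.7 ± 0.838 CPM (adjusted p = 0.0393). The share called was 7.89%, where 21.1% of all tested genes were called. Sesn2 was not called without Ide-/- replicate 2 or 3 (adjusted p = 0.0501 and 0.0531), nor Wdr59 without Ide-/- replicate 1 (0.0521). Itfg2 was not called without Ide+/+ replicate 3, 4 or 5 (0.0501, 0.05003 and 0.0502) or Ide-/- replicate 1, 2 or 3 (0.105, 0.103 and 0.121). On log2(TPM + 1) 18 genes of this list were higher and 0 lower, and with library totals 26 and 0, where 36.1% and 51.7% of all genes were higher. The ATF4 gene Atf4, named for its link to the promoter element, had 43.7 ± 8.195 and 46.0 ± 1.69 CPM and was not called, but it was called higher with library totals (1.29, adjusted p = 0.0157, edgeR) and on log2(TPM + 1) (0.94, adjusted p = 0.0499, limma).

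Of 16 tested genes among other amino acid and peptide carriers, 1 was higher and 3 were lower, or 25.0% called, near the 21.1% of all tested genes. The peptide carrier Slc15a2 rose from 3.93 ± 1.41 to 9.66 ± 5.47 CPM (1.33 on the log2 scale, SE 0.34, adjusted p = 0.018, edgeR). The mitochondrial carriers Slc25a29 (−1.28), Slc25a13 (−1.24), which exchanges aspartate for glutamate, and Slc25a15 (−1.19), the ornithine carrier, were lower. With library totals or TPM none of the 3 was lower, and leaving out Ide+/+ replicate 4, or Ide-/- replicate 2 or 3, gave 0 lower, and leaving out Ide-/- replicate 1 gave 1. The call of Slc15a2 was lost without Ide+/+ replicate 4 (adjusted p = 0.0516) or Ide-/- replicate 2 (0.151, log2 fold change 0.77).

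Of 40 tested enzyme genes that make or break down amino acids, 24 were lower and 2 higher (65.0% called, where 21.1% of all tested genes were called and 10.6% were lower), and the list's median was −1.21 on the log2 scale. Phgdh, Psat1 and Slc7a11 were known as lower from earlier results of these libraries and are not independent support. The creatine synthesis gene Gamt fell from 51.3 ± 24.2 to 1.37 ± 0.261 CPM (−5.21 on the log2 scale, SE 0.49, adjusted p = 0.000205, edgeR). Cth and Cbs, of cysteine synthesis from homocysteine, fell by 4.18 and 2.53 on the log2 scale, and the serine synthesis gene Phgdh by 3.97. Psat1, of the same pathway, had a log2 fold change of −2.62. The higher genes, named after their values were seen, were Gldc (2.03) and Amt (0.86), both of the glycine cleavage system, while Gcsh of the same system was lower (−1.23, adjusted p = 0.0215) and not called without Ide-/- replicate 1, 2 or 3 (0.0598, 0.0898 and 0.0772). Amt was not called without Ide-/- replicate 2 or 3 (adjusted p = 0.057 and 0.0744). On log2(TPM + 1) values 12 enzymes were lower and 8 higher, where 2.33% of all genes were lower and 36.1% higher. With library totals 9 were lower and 10 higher, where 1.73% of all genes were lower and 51.7% higher. For this list too, genotype and acinar content cannot be told apart, because the acinar shares of the genotypes do not overlap.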

How the data were processed

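RNA of hand-picked islets (100 ng, RNA integrity number above 6.5) was sequenced in 8 libraries. The authors deposited RSEM expected counts and TPM per gene and library. Per the submitters' processing notes the tools were STAR 2.7.1a and RSEM 1.3.1 with the build GRCm38, while annotation release and strand setting are not given in the sources used here. Symbols came from GENCODE M21, which matched 55227 of 55487 identifiers. The deposited expected counts were rounded to whole numbers, filtered with filterByExpr (minimum count 10, minimum total 15), scaled by TMM and tested with edgeR 4.0.16 in R 4.3.3 (quasi-likelihood test of genotype, Benjamini-Hochberg adjustment over all genes tested, threshold 0.05). CPM values are TMM-scaled. The deposited TPM values, comparable between genes because they are per length, were tested with limma 3.58.1 as log2(TPM + 1) where the mean was at least 0.5. These fold changes understate those of low genes. The scripts were tested on simulated data.

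The members and lists were chosen with earlier results of these data known. Members are named, except that 1 untested member and 1 enzyme gene are not reported here. Called members have the value of every library, other tested members have group means, and up to 6 called genes by smallest p are named from each of 3 lists. Those lists hold 39 sensing genes, 25 other carriers and 44 enzymes, of which 4 symbols (Samtor, Slc66a1, Slc66a4 and Pycr3) had no match. Of the cell type lists, alpha markers had 1 of 8 lower, delta and PP markers 1 of 6 higher, endothelial and fibroblast markers 1 of 12 lower each, and Schwann markers 1 of 3 tested higher. Alternatives were RLE and granule gene scaling, other filters, DESeq2 1.42.0, limma-voom, TPM with another pseudocount, a replicate block, the acinar share as a term, removal of acinar genes and each library left out. Depth limits precision for genes with few counts, in both genotypes. On the TMM-scaled CPM, 1 count stood for 0.107 CPM in Ide+/+ replicate 5. It stood for 0.100 CPM in Ide+/+ replicate 1 and 0.0917 CPM in Ide-/- replicate 3. The shared replicate numbers were not taken as pairs in the main test. Deviations of same-numbered libraries correlated at −0.0934 to 0.0485, which cannot exclude pairing, since they also carry other differences among libraries.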

Additional observations from a re-analysis of the deposited data

Results flagged for a closer look

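In each of the 38 tested transporters the 5 Ide+/+ libraries were examined for a library far from the others by Dixon's test, and 4 genes had one. Chance gives about 1 in 20 such groups. Slc36a4 had 12.8 CPM in Ide+/+ replicate 1 and 9.01 to 9.72 CPM in the other 4. Slc6a4 had 5.51 CPM in Ide+/+ replicate 1 and 0.818 to 1.71 CPM in the other 4. Slc7a11 had 6.71 CPM in Ide+/+ replicate 4 and 1.71 to 3.11 CPM in the other 4. Slc7a5 had 14.5 CPM in Ide+/+ replicate 4 and 5.80 to 7.19 CPM in the other 4.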

How the results depend on the processing

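Counts are given as higher and lower genes, and the cause of each change was not tested. For the transporters (5 and 10) they were 1 and 10 with granule gene scaling, 6 and 5 with log2(TPM + 1), 5 and 4 with log2(TPM + 0.1), 12 and 6 with library totals, and 0 and 0 with the acinar share as a term. Leaving out 1 library gave 0 to 5 higher and 10 to 12 lower. Their median was −0.32 with granule gene scaling, 0.34 and 0.48 on the TPM scales, 0.79 with library totals, −0.47 with the acinar term and −0.52 to −0.37 with 1 library left out. For the sensing list (2 and 1) the counts in the same order were 1 and 1, 18 and 0, 14 and 0, 26 and 0, and 0 and 0, with 0 to 2 higher and 0 to 2 lower when 1 library was left out. For the other carriers (1 and 3) they were 1 and 1, 2 and 0, 2 and 0, 4 and 0, and 0 and 0, with 2 higher without a filter, 2 and 1 with limma-voom, and 0 to 2 higher and 0 to 4 lower with 1 library left out. For the enzymes (2 and 24) higher genes were 1 with granule gene scaling, then 8 and 12, 6 and 11, 10 and 9, and 0 and 0, with 1 to 3 higher and 16 to 25 lower with 1 library left out. With the acinar term the log2 fold changes of Slc3a2 (0.23), Slc7a3 (0.26), Slc3a1 (−0.37), Slc6a17 (−0.90) and Slc38a6 (−0.56) changed sign. Over all 16266 genes tested with that term, only 1 was called higher and 12 lower. RLE scaling, limma-voom, no filter and removal of acinar genes gave 5 higher and 10 lower transporters, a stricter filter 5 and 9, and DESeq2 5 and 11. Library totals and the sum of Ide+/+ replicates 2 and 3 were chosen after seeing the data. Same-numbered libraries of the genotypes had deviations that correlated at 0.0485, 0.00918 and −0.0934, which gave no sign of pairing but cannot exclude it. With a replicate block 0 transporters were higher and 11 lower, 0 sensing genes were higher, and 0 other carriers were higher and 1 lower, and over all genes 465 were higher and 706 lower. The depth of 7143415 counts in Ide-/- replicate 3 limits genes of a few counts there. On the TMM scale Ide+/+ replicates 1 and 5 are limited no less.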
